A study of Schizosaccharomyces pombe with 14 samples.

Results

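The intergenic long non-coding RNAs (lncRNAs) of the fission yeast Schizosaccharomyces pombe are annotated transcripts whose span overlaps no protein-coding gene on either strand. Of the 7049 genes of the counted table, 431 fitted this description and 964 lncRNAs ran antisense to a coding gene, beside 5186 coding genes. The members were chosen by a rule on gene names and coordinates that uses no measured value. Earlier results of these data were known when it was set. RNA-seq was carried out on 14 libraries of 3 experiments. In the anchor-away experiment, 2 Pac1-AA libraries, in which Pac1 carries an FRB-GFP tag, were set against 2 control (CTL) libraries that lack the tag. Both strains are h-, carry torSE::KanMX6, fkh1::URA+, nmt1-rpl13-2FKBP12 at leu1-32, ura4-D18 and ade6-M210, and received rapamycin (2.5 µg/ml, 2 h), which draws tagged Pac1 out of the nucleus. In the temperature-sensitive experiment, 2 clones of pac1-ts (pac1-G1024A) were set against their parent (WT), all h+ ade6M210 leu1-32 ura4-D18 his3-D1, after 2 h at 37°C and at 30°C. WT has 1 library at each temperature, so the spread in this experiment comes from the clones. In the exonuclease experiment, Pnmt81-dis3, Pnmt81-dhp1 and Pnmt81-dhp1 Pnmt81-dis3 cells, whose exonuclease genes stand under the repressible nmt81 promoter, were set against WT cells, with 1 library each and 60 µM thiamine for 12 to 15 h in all. These strains share leu1-32 ura4-D18 his3-D1, but their mating types and ade6 alleles differ (Pnmt81-dhp1 h- ade6-M210, WT h+ ade6-M216, the other strains with h? and no ade6 allele number).

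Pac1 is the nuclear RNase III of fission yeast, which cuts double-stranded RNA stems and matures ribosomal, small nuclear and small nucleolar RNAs. Most intergenic lncRNAs are made by RNA polymerase II from the gaps between genes, often back to back with a coding gene that shares the nucleosome-free region, and many are removed soon after synthesis. The catalytic subunit of the exosome, Dis3, degrades RNA from its 3′ end, and Dhp1 (Rat1/Xrn2 in other species) degrades it from its 5′ end in the nucleus. The YTH-family protein Mmi1 binds UUAAAC in meiotic transcripts of growing cells and hands them to the exosome.

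The 6 sequences below belong to members on which the results turn, and all were read from the RefSeq assembly ASM294v3 at members whose coordinates there equal those of the counted table. The first set holds the member called in both Pac1 experiments and a short member whose rise with pac1-ts was called at 37°C and not at 30°C. SPNCRNA.488 is given by its first 300 bases (chrIII:1337438-1337737, plus strand), and SPNCRNA.115 (chrII:3379891-3379982, plus strand) is whole. No base is capitalised in these.
SPNCRNA.488: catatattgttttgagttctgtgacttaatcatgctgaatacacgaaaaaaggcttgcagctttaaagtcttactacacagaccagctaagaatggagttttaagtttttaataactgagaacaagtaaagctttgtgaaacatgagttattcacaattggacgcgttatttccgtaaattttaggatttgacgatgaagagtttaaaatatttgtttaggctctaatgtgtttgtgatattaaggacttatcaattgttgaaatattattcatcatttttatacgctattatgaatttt
SPNCRNA.115: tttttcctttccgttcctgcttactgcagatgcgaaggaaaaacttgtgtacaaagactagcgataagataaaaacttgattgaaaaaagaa

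SPNCRNA.388 had the most counts of all members in the dis3 libraries, and a stretch of it is shown (chrII:2115668-2115967, plus strand) in which capitals mark 2 copies of TTAAAC, the DNA form of the Mmi1 core motif.
SPNCRNA.388: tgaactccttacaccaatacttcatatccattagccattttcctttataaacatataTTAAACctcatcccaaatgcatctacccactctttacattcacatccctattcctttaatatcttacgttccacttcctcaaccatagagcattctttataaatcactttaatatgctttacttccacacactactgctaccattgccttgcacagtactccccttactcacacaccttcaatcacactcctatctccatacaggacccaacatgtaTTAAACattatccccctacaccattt

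The promoter windows of SPNCRNA.323 (chrII:682848-683147, plus strand) and SPNCRNA.1255 (chrIII:2023212-2023511, minus strand) are shown because, of the members called higher at 37°C in both strains, they had the largest rises in pac1-ts. Each runs over 250 bases before and 50 bases after the annotated start, and no base is capitalised. In a 29-base piece at the start of SPNCRNA.1315 (chrII:142162-142190, minus strand), capitals mark 3 alternating GAA/TTC units, the heat shock element bound by Hsf1.
SPNCRNA.323 promoter: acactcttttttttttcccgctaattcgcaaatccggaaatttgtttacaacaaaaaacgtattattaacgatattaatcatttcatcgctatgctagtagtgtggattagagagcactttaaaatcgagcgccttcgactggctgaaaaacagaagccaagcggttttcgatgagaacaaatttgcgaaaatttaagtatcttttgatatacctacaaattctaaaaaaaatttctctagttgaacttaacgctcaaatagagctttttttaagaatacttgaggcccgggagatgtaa
SPNCRNA.1255 promoter: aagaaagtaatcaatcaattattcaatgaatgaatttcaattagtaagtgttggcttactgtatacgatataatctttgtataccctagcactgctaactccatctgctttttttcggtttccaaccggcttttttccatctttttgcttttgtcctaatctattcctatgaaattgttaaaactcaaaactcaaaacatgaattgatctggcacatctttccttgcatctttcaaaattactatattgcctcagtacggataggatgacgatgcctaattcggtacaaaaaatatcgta
SPNCRNA.1315 site: caaactttGAAGATTCTAGAAtcaaaccg

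The members lie on all 3 chromosomes, with 193 on chromosome I, 162 on chromosome II and 76 on chromosome III. Their median length was 605 nucleotides (56 to 5123), against 1288.5 nucleotides for the antisense lncRNAs, and their median GC content was 32.19% against 35.82%. By position, 182 were divergent, with the nearest coding gene upstream on the opposite strand within 500 base pairs, 46 lay within 500 base pairs downstream of a coding gene on the same strand, and 203 had neither neighbour. Another non-coding gene overlapped 190 members, 93 of them on the same strand, where the counter by default leaves out fragments that touch both annotations. At least 1 TTAAAC hexamer stood in 35.7% of the 367 members with equal coordinates and in 47.6% of the antisense lncRNAs. Per kilobase the order turned, with 0.616 hexamers in the members and 0.466 in the antisense lncRNAs. Of these 367 members, 320 held no 50-base stretch that recurs elsewhere in the assembly, and 41 were repeated over more than 50% of their length, so that fragments from those members could map to more than 1 place.

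Across the 14 libraries, 6836270 to 53258725 fragments were counted on genes, and Pac1-AA libraries (50263361 and 53258725) were deeper than CTL libraries (19877576 and 33426243). The median FPKM (fragments per kilobase of gene length, scaled to the library total) of the members was 0.711 and 0.62 in Pac1-AA and 0.479 and 0.521 in CTL, 5.02 and 5.74 in pac1-ts at 37°C and 4.25 in WT at 37°C, and 3.28 and 3.87 in pac1-ts at 30°C and 2.41 in WT at 30°C. In the exonuclease experiment it was 2.38 in Pnmt81-dis3, 2.05 in Pnmt81-dhp1 and 3.13 in the library with both, against 0.3 in WT. Coding genes had medians of 31.2 to 48.5 FPKM in the same libraries. Levels are not comparable between the temperature-sensitive experiment and the others, which were made with different library kits. Nor should they be compared between the anchor-away and exonuclease experiments, where srp7, described below, took very unlike shares of the member counts.

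**Figure D1:**
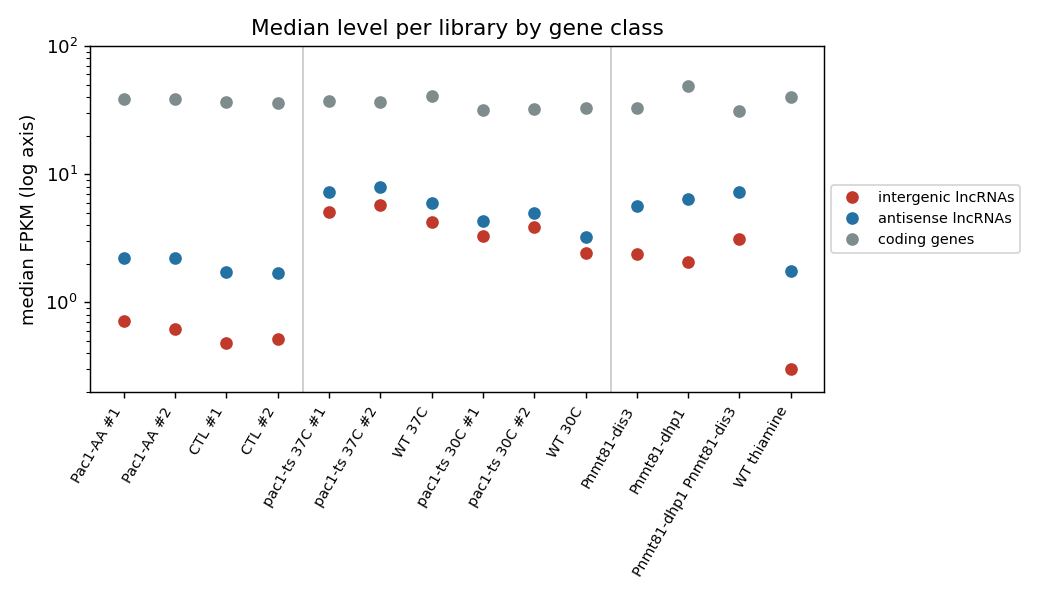
Median FPKM (log axis) of the intergenic lncRNAs, the antisense lncRNAs and the coding genes in each of the 14 libraries, 1 point per class and library, with grey lines between the experiments. The intergenic lncRNAs lie below the antisense lncRNAs in every library, and their lowest median, 0.3, is that of WT in thiamine.

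In the anchor-away libraries the member with the highest level per length was srp7 (SPNCRNA.98), the RNA of the signal recognition particle, with 24500 and 22200 FPKM in Pac1-AA and 26700 and 17600 FPKM in CTL. It took 82.5% to 87.2% of all member counts in the anchor-away libraries, 34.7% to 54.5% in the temperature-sensitive libraries and 0.764% to 2.95% in the exonuclease libraries, where SPNCRNA.388 stood above it in both libraries labelled with dis3 (1040 and 2880 FPKM, against 248 and 224 FPKM for srp7). In the anchor-away libraries SPNCRNA.504 followed with 1150 and 1070 FPKM in Pac1-AA and 1110 and 1020 FPKM in CTL. It starts 52 base pairs downstream of the thiamine-repressible gene nmt1, on the same strand, and in thiamine it had 5, 3 and 6 counts in Pnmt81-dis3, Pnmt81-dhp1 and the library with both and 0 in WT. SPNCRNA.99 (257 and 238 FPKM in Pac1-AA, 244 and 226 in CTL) and SPNCRNA.242 (173 and 182 in Pac1-AA, 227 and 196 in CTL) came next. The libraries of both strains overlapped for srp7, SPNCRNA.504 and SPNCRNA.99, whereas SPNCRNA.242 was lower in both Pac1-AA libraries (log2 fold change -0.34, standard error 0.059, adjusted p = 0.00291 in edgeR). The list of the highest levels went on with SPNCRNA.130, SPNCRNA.1095, SPNCRNA.1443 and SPNCRNA.530, between 26.6 and 103 FPKM in CTL. SPNCRNA.1095 is a repeat over its whole length.

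The first comparison asks which intergenic lncRNAs change when Pac1 leaves the nucleus. The members took 1.45% and 1.33% of all counts in Pac1-AA and 1.53% and 1.06% in CTL. The groups overlapped, and the means of 1.39 ± 0.085% and 1.3 ± 0.331% (SD, n = 2 each) differed by 0.0904 percentage points (two-sided exact permutation test, p = 1.0). Without srp7 the share was 0.222 ± 0.00119% in Pac1-AA and 0.191 ± 0.007% in CTL (SD, n = 2 each), a difference of 0.0306 percentage points for which the exact p of 0.333 is the smallest this design allows. Leaving out srp7 was chosen after seeing the data.

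Of the 431 members, 247 passed the filter on low counts and 184 did not, 56 of which had no count in any of the 4 libraries. A gene was called where its adjusted p was below 0.01 and its log2 fold change beyond 1 in either direction (edgeR's quasi-likelihood test, Benjamini-Hochberg adjustment over all genes tested). On this rule 3 members were higher in Pac1-AA, where the share of all 6328 genes tested was 0.616%, and 0 were lower, where it was 0.221%. DESeq2 also called 0 lower. At an unadjusted p under 0.05, 73 members were higher and 12 lower, beside 2213 of all 6328 genes in either direction. At any fold change, 17 members were higher and 3 lower at an adjusted p below 0.01, against 4.55% and 7.46% of all genes. The median log2 fold change of the members was 0.238, that of the antisense lncRNAs 0.167 and that of the coding genes -0.009, and 188 of the 247 members had a positive value. Depth moved with the groups in this comparison and its part in these medians was not tested.

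SPNCRNA.963 had 3.82 and 4.34 CPM (counts divided by the library total after TMM scaling) in Pac1-AA and 1.98 and 1.52 CPM in CTL. Both Pac1-AA libraries lay above both CTL libraries (log2 fold change 1.26, standard error 0.17, adjusted p = 0.000649 in edgeR). It lies between SPAC26H5.09c and tif51, both on the opposite strand, and 23.7% of its length recurs elsewhere in the assembly. SPNCRNA.209, which is divergent from the elongation factor gene eft201, had 1.9 and 1.93 CPM in Pac1-AA and 0.938 and 0.839 CPM in CTL, again without overlap (1.13, standard error 0.20, adjusted p = 0.00337). SPNCRNA.488 had 1.86 and 2.11 CPM in Pac1-AA and 1.15 and 0.777 CPM in CTL, without overlap (1.12, standard error 0.23, adjusted p = 0.00706). The 3 calls rest on few libraries. Without Pac1-AA #1 or without Pac1-AA #2 only 1 of them was kept, as with DESeq2. Without CTL #1 there were 8 calls, all 3 included, and without CTL #2 there were 3, of which 1 was the same.

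The study's ChIP-seq list of Pac1-associated genes holds 16 members, of which 12 passed the filter in this experiment. The log2 fold changes of those 12 ranged between -0.49 and 0.36 with a median of 0.08, beside 0.24 for all members, and 0 were called in either direction by edgeR or DESeq2. At an unadjusted p under 0.05, 4 were higher and 2 lower, beside 2213 of all 6328 genes in either direction. SPNCRNA.82, SPNCRNA.248, SPNCRNA.510 and SPNCRNA.532 did not pass the filter. The value farthest from 0 was that of SPNCRNA.863, with 15.4 and 18.6 CPM in Pac1-AA and 26.2 and 22.3 CPM in CTL (-0.49, standard error 0.10, adjusted p = 0.00884). Its libraries did not overlap, but the change stayed under the fold threshold. SPNCRNA.1696 (nam3), a subtelomeric RNA on the list, had 38.8 and 35.9 CPM in Pac1-AA and 28.6 and 29.2 CPM in CTL (0.36, standard error 0.055, adjusted p = 0.00121). The 46 members just downstream of a coding gene on the same strand, where reading through that gene's end could add counts, had a median of 0.00 over the 24 tested, with 0 called by either tool and 2 higher and 0 lower at an unadjusted p under 0.05.

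The pac1 transcript was measured as a check of the strains. It had 157 and 154 CPM in Pac1-AA and 97 and 94.2 CPM in CTL, 85.8 and 77.2 CPM in pac1-ts at 37°C and 69 CPM in WT at 37°C, and 124 and 121 CPM in pac1-ts at 30°C and 248 CPM in WT at 30°C. Neither the relocation of the protein nor the point mutation can be read from these counts. Of 35 nuclear RNA decay genes (RNase III, exosome, TRAMP, Mmi1 and termination factors), 0 were called in Pac1-AA by edgeR or DESeq2, with 5 higher and 4 lower at an unadjusted p under 0.05. Over all 6328 genes tested, 2213 had such a p. At any fold change, 1 (pac1, 0.7) was higher and 0 lower at an adjusted p below 0.01 in edgeR, against 4.55% and 7.46% of all genes. In pac1-ts, 1 was called lower at 30°C (pac1, -1.01, against 0.788% of all genes), 0 higher, and 0 at 37°C. At any fold change, 4 were lower at 30°C and 1 at 37°C at an adjusted p below 0.01 in edgeR, and 0 higher. Of all 6728 genes tested, 424 and 423 were lower and 244 and 390 higher by that rule. The interaction called pac1 (1.26). The shift to 37°C called 2 lower in WT and 1 in pac1-ts, against 4.49% and 4.8% of all genes, and 0 higher.

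The second comparison asks the same of the pac1-ts mutation at 30°C and at 37°C. In these 6 libraries 353 members passed the filter and 78 did not, 39 of which had no count. At 30°C, 6 members (1.7% of those tested) were higher in pac1-ts, against 1.62% of all genes tested, and 8 (2.27%) were lower, against 0.788%. At 37°C, 8 (2.27%) were higher, against 2.26%, and 3 (0.85%) lower, against 0.595%. The median log2 fold change of the members was 0.404 at 30°C and 0.34 at 37°C, close to the antisense lncRNAs (0.424 and 0.396) and above the coding genes (-0.079 and -0.069). Because each clone was sequenced at both temperatures, the fit was repeated with the clone as a block, which called 20 members higher at 30°C and 16 at 37°C. For pac1-ts against WT this block takes the spread between the clones out of the error. Its larger counts therefore do not measure pac1-ts against that spread. The number of calls also moved with single libraries. At 30°C, 14 members were higher without pac1-ts 30°C #1, 15 without pac1-ts 37°C #1 and 16 without pac1-ts 37°C #2, and at 37°C, 4 were higher without pac1-ts 37°C #2.

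SPNCRNA.488, printed above, was called higher with Pac1-AA as well as with pac1-ts at 30°C, which is 33.3% of the members called higher in Pac1-AA and 16.7% of those in pac1-ts at 30°C. It had 4.67 and 5.42 CPM in pac1-ts at 30°C and 1.75 CPM in WT (log2 fold change 1.52, standard error 0.32, adjusted p = 0.00676). At 37°C it had 12.1 and 13.9 CPM in pac1-ts and 9.19 CPM in WT, which did not pass the test (0.50, adjusted p = 0.101). The glutamate dehydrogenase gene gdh2, 1240 base pairs upstream on the opposite strand, was called in the same direction at 30°C (1.18). None of the members called in Pac1-AA was called in pac1-ts at 37°C.

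Pac1-bound members were among those higher in pac1-ts. SPNCRNA.727, which RefSeq lists under mrp1, the RNA of RNase MRP, and which overlaps SPNCRNA.82 on the same strand, had 11.7 and 16.1 CPM in pac1-ts and 3.51 CPM in WT at 30°C (1.99, standard error 0.28, adjusted p = 0.000673). At 37°C it had 9.29 and 10.1 CPM in pac1-ts and 2.89 CPM in WT (1.74, adjusted p = 0.00138), so the clones lay above WT at both temperatures. In the anchor-away libraries it had 4.42 and 5.46 CPM in Pac1-AA and 4.43 and 5.16 CPM in CTL, which overlapped (0.02, adjusted p = 0.929). SPNCRNA.727 starts inside SPNCRNA.82 and ends nearer the next coding gene (489 against 751 base pairs). Fragments that touch both are left out, so its counts come from the part downstream of SPNCRNA.82. The level of the RNase MRP RNA itself cannot be read from them. SPNCRNA.1696 (nam3) rose at 30°C, with 26.7 and 28.8 CPM in pac1-ts and 12.3 CPM in WT (1.17, adjusted p = 0.000347). Of the 13 Pac1-bound members tested, 2 were higher and 1 lower at 30°C, against 1.62% and 0.788% of all genes. At 37°C, 3 were higher and 0 lower, against 2.26% and 0.595%. At 37°C DESeq2 called 2 higher and 0 lower. There 6 were higher and 2 lower at an unadjusted p under 0.05, beside 2602 of all 6728 genes in either direction.

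The other member called higher at both temperatures was SPNCRNA.530 (sno530 in RefSeq), with 17.8 and 17.3 CPM in pac1-ts and 8.12 CPM in WT at 30°C (1.11, adjusted p = 0.002) and 15.4 and 18.1 CPM in pac1-ts and 7.72 CPM in WT at 37°C (1.12, adjusted p = 0.00144). Called at 30°C and not at 37°C, SPNCRNA.667 (1.71) and SPNCRNA.1424 (1.45) rose, SPNCRNA.504 and SPNCRNA.900 fell by 1.37 and 1.11 on the log2 scale, and SPNCRNA.269, beside the pyridoxine gene snz1, fell by 1.75 on the log2 scale, where snz1 itself fell by 1.10. At 37°C SPNCRNA.130 (omt3) rose, with 22.3 and 14.2 CPM in pac1-ts and 5.78 CPM in WT (1.66, adjusted p = 0.00194), and at 30°C it had 64.4 and 49.7 CPM in pac1-ts and 39.1 CPM in WT, which did not pass (0.54, adjusted p = 0.0843). It lies 1054 base pairs from mei2, the RNA-binding regulator of meiosis, on the opposite strand. SPNCRNA.137, near the end of chromosome I, had 2.24 and 1.98 CPM in pac1-ts and 0.473 CPM in WT at 37°C (2.15, adjusted p = 0.00726). For none of the members called at a single temperature here did the difference between temperatures pass in edgeR, and with the clone as a block it passed for SPNCRNA.504 (adjusted p = 3.36e-06), SPNCRNA.269 (0.00018) and SPNCRNA.130 (0.000394). For this difference the block compares each clone with itself, which the main fit does not. The 29 subtelomeric members tested had medians of 0.77 at 30°C and 0.72 at 37°C. At each temperature 1 was called higher, against 1.62% and 2.26% of all genes. DESeq2 called 1 of them at 30°C and 0 at 37°C.

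**Figure D2:**
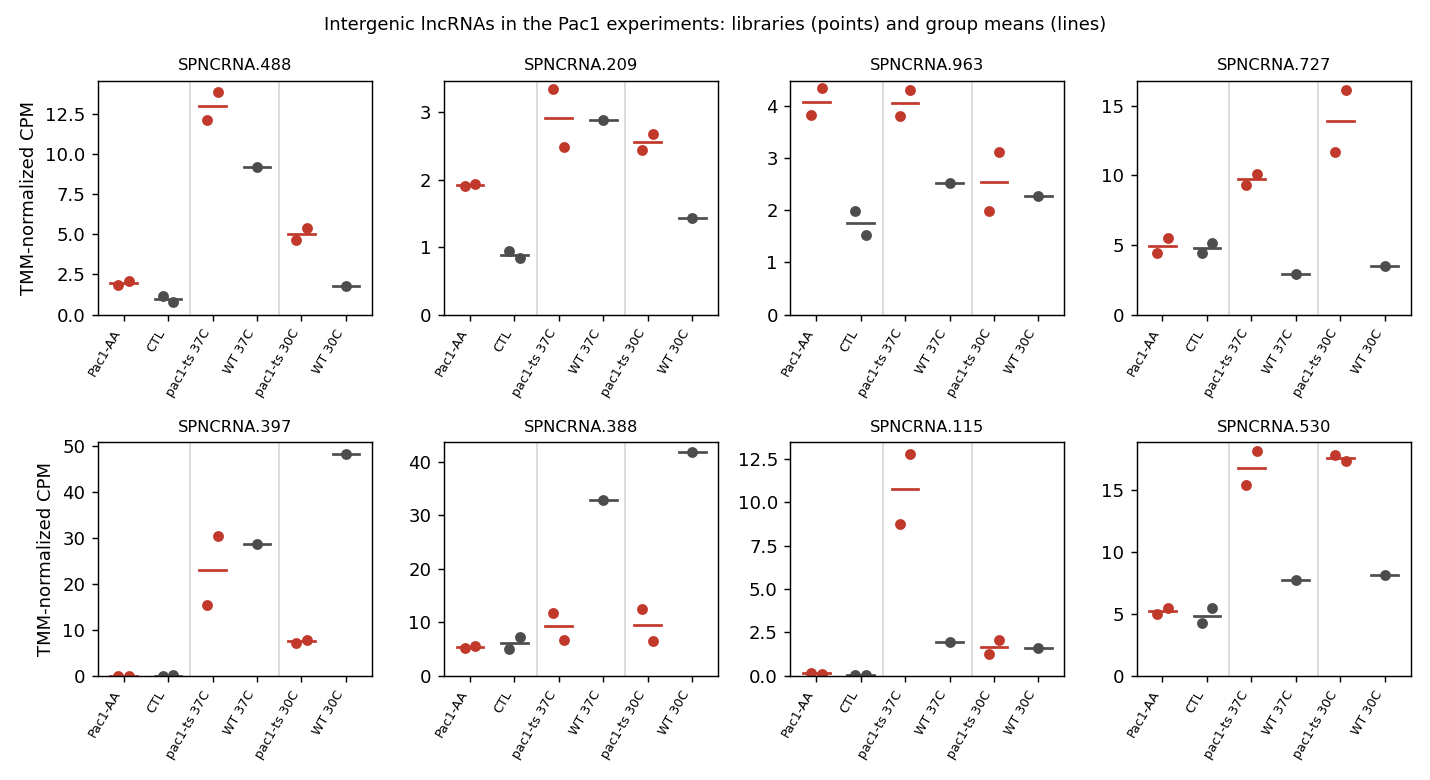
TMM-normalized CPM of 8 intergenic lncRNAs in the anchor-away libraries (left of the first grey line), at 37°C (middle) and at 30°C (right), with the Pac1 mutant in red and its control in grey, 1 point per library and a line at each group mean. SPNCRNA.488 is higher in the mutant in all 3 settings, SPNCRNA.727 in pac1-ts but not in Pac1-AA, and SPNCRNA.388 is lower in pac1-ts at both temperatures.

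SPNCRNA.388 fell in pac1-ts, with 12.5 and 6.5 CPM in the clones and 41.8 CPM in WT at 30°C (log2 fold change -2.14, standard error 0.30, adjusted p = 0.000679) and 11.8 and 6.68 CPM in the clones and 32.8 CPM in WT at 37°C (-1.82, standard error 0.30, adjusted p = 0.00149). Both clones lay below WT, with a gap of nearly the same size between the clones at each temperature, and neither call was kept by DESeq2. The member lies 564 base pairs downstream of the mating-type gene mat1-Mc on the same strand. In the h- anchor-away strains it had 5.25 and 5.67 CPM in Pac1-AA and 5 and 7.24 CPM in CTL, which overlapped. SPNCRNA.253 (20.9 and 18.2 CPM in pac1-ts and 51.5 in WT at 30°C; 7.62 and 7.08 in pac1-ts and 15.3 in WT at 37°C) and SPNCRNA.01 (40.1 and 35.3 in pac1-ts and 79 in WT at 30°C; 51.3 and 57.9 in pac1-ts and 113 in WT at 37°C) were also lower at both temperatures. These members make up 37.5% of those lower at 30°C and are all 3 of those lower at 37°C.

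The interaction term tests whether the effect of pac1-ts differs between 37°C and 30°C. The call rule took 1 member (0.283% of those tested) with a more positive effect at 37°C, against 0.713% of all genes tested. It took 0 with a more negative one, against 0.282%. On the negative side 19 members had an unadjusted p under 0.05, beside 1014 of all 6728 genes on either side. DESeq2 called 0 members in either direction. With the clone as a block 7 and 1 were called. For this term the block compares each clone with itself across the temperatures, a pairing that the main fit leaves out. Both fits rest on 2 clones and 1 WT library at each temperature. The called member was SPNCRNA.397. It had 15.5 and 30.3 CPM in pac1-ts and 28.7 CPM in WT at 37°C, which overlapped, and 7.18 and 7.78 CPM in pac1-ts and 48.3 CPM in WT at 30°C, which did not. The log2 fold change was -0.33 (adjusted p = 0.39) at 37°C and -2.69 (adjusted p = 0.000126) at 30°C, and the difference of 2.36 (standard error 0.41) had an adjusted p of 0.0097 in edgeR. The call was lost with DESeq2 (2.34), with RLE factors (2.33) and with library totals (2.23), at nearly the same size.

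SPNCRNA.115, a 92-nucleotide RNA, had 8.76 and 12.8 CPM in pac1-ts and 1.94 CPM in WT at 37°C (2.46, standard error 0.36, adjusted p = 0.000717) and 1.25 and 2.04 CPM in pac1-ts and 1.62 CPM in WT at 30°C (0.02). The clones lay above WT at 37°C and on both sides of it at 30°C. The interaction of 2.44 did not pass the test (standard error 0.63, adjusted p = 0.0694) except with the clone as a block (adjusted p = 0.000874). Neither SPNCRNA.397 nor SPNCRNA.115 passed the filter in the anchor-away libraries, where both stayed under 0.2 CPM.

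The temperature shift itself was compared within each strain, and these comparisons share no library. In pac1-ts, 25 members (7.08% of those tested) were higher at 37°C, against 6.29% of all genes tested, and 7 (1.98%) lower, against 4.8%. With the clone as a block, which keeps this shift within each clone, 25 and 7 were called as well. In WT, 28 (7.93%) were higher, against 5.87%, and 8 (2.27%) lower, against 4.49%. Of those called higher, 14 were the same in both strains (56.0% of the 25 in pac1-ts, and 14 of the 28 in WT), as were 5 of those called lower (71.4% in pac1-ts and 62.5% in WT). The median log2 fold change of the members was 0.246 in pac1-ts and 0.349 in WT, beside 0.347 and 0.393 for the antisense lncRNAs and -0.09 and -0.107 for the coding genes. These values depend on scaling. Library totals in place of TMM moved the median of all genes by 0.304 in pac1-ts and 0.398 in WT, and gave 47 members higher and 4 lower in pac1-ts and 51 higher and 6 lower in WT.

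SPNCRNA.323 had 42.9 and 57.8 CPM at 37°C and 7.04 and 10.2 CPM at 30°C in pac1-ts (log2 fold change 2.54, standard error 0.18, adjusted p = 5.33e-07). In WT it had 36.2 CPM at 37°C and 7.01 CPM at 30°C (2.37, standard error 0.27, adjusted p = 4.67e-05), and the levels at the 2 temperatures were far apart in both strains. SPNCRNA.1255 had 25.4 and 33.6 CPM at 37°C and 5 and 4.85 CPM at 30°C in pac1-ts (2.58, adjusted p = 2.98e-07). In WT it had 39.7 and 7.6 CPM at 37°C and 30°C (2.38, adjusted p = 1.14e-05). The most abundant riser was SPNCRNA.863, a Pac1-bound member with 54.8% of its length repeated elsewhere, at 2010 and 2350 CPM at 37°C and 470 and 559 CPM at 30°C in pac1-ts (2.08, adjusted p = 6.16e-08) and 1070 and 324 CPM at 37°C and 30°C in WT (1.72, adjusted p = 1.14e-05). It also stood higher in pac1-ts than in WT at 37°C (1.03, adjusted p = 0.000481). SPNCRNA.1348 rose by 1.20 in pac1-ts and 2.32 in WT, and SPNCRNA.1472 was called in WT (2.02) and not in pac1-ts. SPNCRNA.1549, divergent from the stress-induced glutathione peroxidase gene gpx1, rose by 2.47 in pac1-ts and 2.13 in WT, and gpx1 rose by 3.18 and 2.22. SPNCRNA.940, divergent from SPAC4H3.08, rose in pac1-ts (1.92) but did not pass in WT (1.28, adjusted p = 0.0142; with the clone as a block 0.00165), and SPAC4H3.08 rose by 6.63 and 6.61.

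Among the members that fell, SPNCRNA.130 had 22.3 and 14.2 CPM at 37°C and 64.4 and 49.7 CPM at 30°C in pac1-ts (-1.64, adjusted p = 1.4e-05) and 5.78 and 39.1 CPM at 37°C and 30°C in WT (-2.76, adjusted p = 3.57e-05). The neighbouring mei2 fell by 3.09 in pac1-ts and 2.79 in WT. SPNCRNA.877 (-1.22 and -2.91), SPNCRNA.1415 (-1.56 and -2.69), SPNCRNA.253 (-1.41 and -1.75) and SPNCRNA.1444 (-1.70 and -1.46) fell in pac1-ts and in WT. SPNCRNA.163, between the cell cycle genes slp1 and eng1, fell in WT only at the thresholds used (-0.31 in pac1-ts, -1.73 in WT), where the difference between the strains did not pass (1.42, adjusted p = 0.243). SPNCRNA.504 showed the same pattern (-0.16 in pac1-ts, -1.54 in WT) beside nmt1 (-0.80 and -1.03), and its difference did not pass either (1.37, adjusted p = 0.0627; with the clone as a block 3.36e-06). A coding neighbour was called in the same direction for 7 of the 25 risers and 4 of the 7 fallers in pac1-ts and for 7 of the 28 risers and 3 of the 8 fallers in WT. A neighbour was called in the opposite direction for 2 risers in pac1-ts and 3 in WT, and for no faller. Of members not called, 47 of 321 in pac1-ts and 37 of 317 in WT had a neighbour called higher, and 47 and 41 had one called lower.

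**Figure D3:**
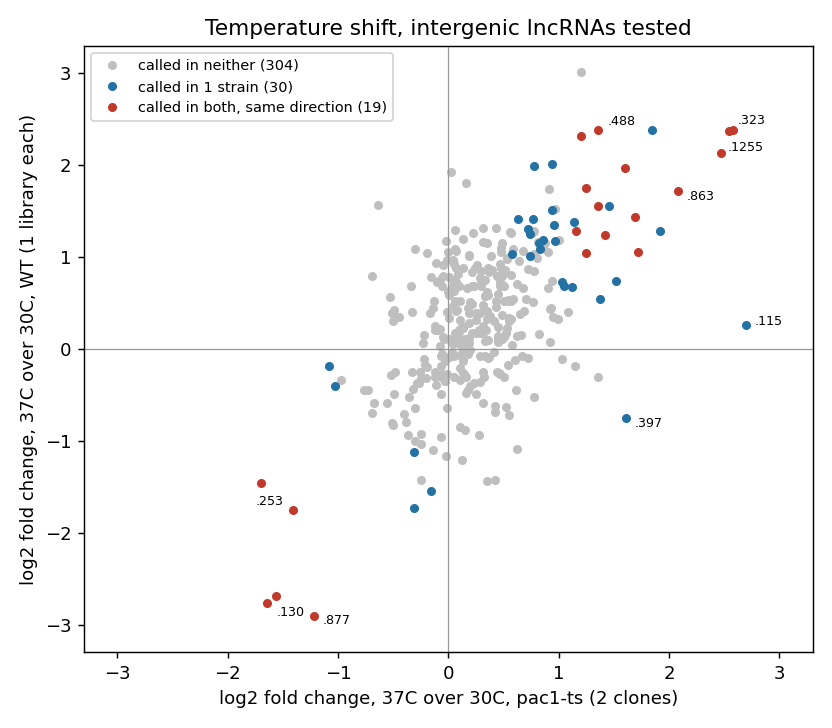
Log2 fold change of 37°C over 30°C in WT (vertical, 1 library at each temperature) against pac1-ts (horizontal, 2 clones) for the 353 intergenic lncRNAs tested, each point a member. The 19 members called in both strains in the same direction (red) lie at the upper right and lower left, 30 were called in 1 strain (blue) and 304 in neither (grey), and SPNCRNA.115 and SPNCRNA.397 stand to the right near and below the horizontal line.

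By position, 12 of 157 divergent members tested were higher at 37°C in pac1-ts and 19 in WT, against 4 and 1 of 39 just downstream of a coding gene and 9 and 8 of the 157 with neither neighbour. Of all genes tested, 6.29% in pac1-ts and 5.87% in WT were higher. The promoter windows (300 bases) of all 14 members higher in both strains were searched for 2 inverted GAA units (GAANNTTC or TTCNNGAA), each of which reads the same on the other strand. The motif stood in 1 of the 14, SPNCRNA.1315, in 2 of the 5 members lower in both strains, and in 18.3% of the 367 windows read. The extended form with 3 alternating units (GAANNTTCNNGAA or TTCNNGAANNTTC), which contains the first, stood in 4 of the 367 windows (1.09%), SPNCRNA.1315 among them. The others, SPNCRNA.472, SPNCRNA.1477 and SPNCRNA.1696, were tested and were not called for the shift in either strain. In SPNCRNA.1315 the site crosses the annotated start and lies mostly inside the transcript. A part of the motif in its rise was not tested. The CRE motif TGACGT of the stress factor Atf1, on either strand, stood in 1 of the 14 (SPNCRNA.1348) and in 8.99% of all windows. SPNCRNA.1315 had 6.57 and 7.53 CPM at 37°C and 3.29 and 2.61 CPM at 30°C in pac1-ts (1.25) and 6.99 and 2.08 CPM at 37°C and 30°C in WT (1.75).

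Of 13 marker genes of sexual differentiation 12 were found in the table. In the temperature-sensitive experiment their summed level was 779 and 729 CPM in pac1-ts and 615 CPM in WT at 37°C, and 1770 and 1610 CPM in pac1-ts and 1140 CPM in WT at 30°C, with no marker at 0. Of these, mei2 was called higher in pac1-ts at 30°C (1.08) and lower at 37°C in both strains, and no other marker was called. In the anchor-away experiment the sum was 879 and 903 CPM in Pac1-AA and 872 and 925 CPM in CTL. At 30°C most of the gap in the sum lay in mei2, with 837 and 724 CPM in pac1-ts and 368 CPM in WT, and ste11 (698 and 649 CPM in pac1-ts, 556 CPM in WT) was not called. The part of these genes in the members' levels was not tested.

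The third comparison asks which members accumulate when the exosome or the 5′-3′ exonuclease is repressed. The targeted transcripts did not bear out every label. The dis3 transcript had 168 CPM in the library labelled Pnmt81-dis3 and 254 CPM in that labelled Pnmt81-dhp1 Pnmt81-dis3, against 201 CPM in WT. The dhp1 transcript had 113 CPM in the library labelled Pnmt81-dhp1 and 381 CPM in that labelled Pnmt81-dhp1 Pnmt81-dis3, against 179 CPM in WT. In the library labelled Pnmt81-dhp1 the dis3 transcript was also lower, at 114 CPM, and in that labelled Pnmt81-dis3 the dhp1 transcript was at 407 CPM. Each library is therefore given below by its label, and no direction is tied to the loss of either enzyme. With 1 library per group there was no replicate check and no test. Ratios are of TMM-scaled counts plus 0.5 for members with at least 20 counts in 1 of the libraries compared, and intervals (95%, Clopper-Pearson) cover counting error only.

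Of 193 members compared, 148 (76.7%) were more than 2-fold higher in the library labelled Pnmt81-dis3, against 25.4% of all genes compared. There 3 (1.55%) were lower, against 17.9%, and the median log2 ratio was 2.73. In the library labelled Pnmt81-dhp1, 77 of 160 (48.1%) were higher, against 16.7%, and 13 (8.12%) lower, against 10.1%, with a median of 0.95. In that labelled Pnmt81-dhp1 Pnmt81-dis3, 162 of 198 (81.8%) were higher, against 26.3%, and 5 (2.53%) lower, against 17.1%, with a median of 3.04. The medians of the antisense lncRNAs were 1.8, 1.25 and 2.27 in the same order of libraries, and those of the coding genes were -0.15, -0.03 and -0.18. Members that passed through the mutant library alone had to be higher. With at least 20 counts required in the WT library, chosen after seeing the data, 91 members remained. Of these, 54, 22 and 59 were more than 2-fold higher in the same order, where the shares of all genes under that rule were 18.5%, 10.4% and 18.8%. In turn 3, 13 and 5 were lower, where the shares of all genes were 19.8%, 11% and 19.0%. The medians of those 91 were 1.29, 0.26 and 1.54, beside 1.29, 0.56 and 1.55 for 444 antisense lncRNAs. In WT 204 members had no count, and 86 had none in all 4 libraries. These 3 comparisons share the WT library, and its depth was the lowest of all (6836270 counts).

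**Figure D4:**
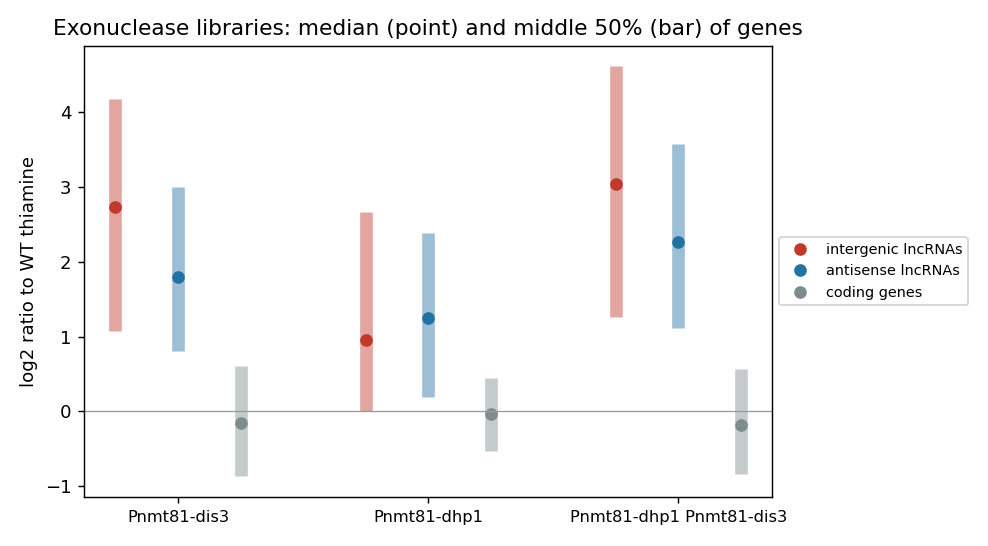
Log2 ratio to WT in thiamine for the libraries labelled Pnmt81-dis3, Pnmt81-dhp1 and Pnmt81-dhp1 Pnmt81-dis3, with the median (point) and the middle 50% (bar) of the intergenic lncRNAs, antisense lncRNAs and coding genes that reached 20 counts. The intergenic medians are 2.73, 0.95 and 3.04, and the coding medians lie between -0.18 and -0.03.

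SPNCRNA.388 reached 15577 counts in the library labelled Pnmt81-dis3, 1934 in that labelled Pnmt81-dhp1 and 38110 in that labelled with both, against 257 in WT. These are ratios of 48.2-fold (42.6 to 54.7), 5.62-fold (4.93 to 6.42) and 139-fold (123 to 157), the highest being in the library labelled with both. It holds 4 TTAAAC hexamers, 2 of them in the stretch printed above. The mating types recorded for these strains differ, and the member lies beside mat1-Mc, so strain background and label cannot be told apart for it. The sexual differentiation markers summed to 2000, 301 and 2440 CPM in the same order, against 398 CPM in WT, with mei4, a meiotic transcription factor gene and Mmi1 target, at 129, 9.46 and 160 CPM against 7.43 CPM. Not all markers rose. In the same order, mei2 had 38.3, 21.4 and 45.2 CPM against 140 CPM, and ste11 had 34.8, 18.6 and 25.1 CPM against 36.4 CPM.

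Several members were far higher in both libraries labelled with dis3 than in that labelled Pnmt81-dhp1. SPNCRNA.942, a Pac1-bound divergent RNA, had 1539 counts in Pnmt81-dis3, 29 in Pnmt81-dhp1 and 901 in the library with both, against 28 in WT. SPNCRNA.242 had 1348, 32 and 942 counts in the same order, against 36 in WT. SPNCRNA.292 had 175, 5 and 97 counts against 0 in WT, which is at least 46.4-fold higher in Pnmt81-dis3 and at least 30.2-fold higher in the library with both, set against the floor of 3 counts. SPNCRNA.201, just downstream of the hexokinase gene hxk2, had 84, 12 and 85 counts against 0, at least 22.3-, 2.99- and 26.5-fold higher. SPNCRNA.115 had 107, 4 and 90 counts against 5. SPNCRNA.184 (53, 2 and 44 against 0) and SPNCRNA.296 (58, 3 and 56 against 0) had the same order. Others with large ratios in Pnmt81-dis3 were higher in Pnmt81-dhp1 too. SPNCRNA.318 had 87, 31 and 55 counts against 0, at least 23.1-, 7.71- and 17.1-fold higher. SPNCRNA.530 (sno530) had 126, 64 and 113 counts against 3, ratios of 33.4-fold (11.2 to 164), 15.9-fold (5.21 to 79.2) and 35.2-fold (11.7 to 173). SPNCRNA.1299, which is repeated elsewhere over 78.4% of its length, had 4765, 3930 and 3897 counts against 32 in WT.

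Other members were higher in Pnmt81-dhp1 than in Pnmt81-dis3. SPNCRNA.1065, divergent from SPAC2H10.04, had 148, 568 and 737 counts in Pnmt81-dis3, Pnmt81-dhp1 and the library with both, against 4 in WT. These are 29.4-fold (11.3 to 109), 106-fold (41.2 to 390) and 172-fold (67 to 633). SPNCRNA.1375, a Pac1-bound RNA just downstream of the elongation factor gene tef103, had 5, 70 and 70 counts against 1, and SPNCRNA.808 had 0, 50 and 11 against 0. SPNCRNA.21 (prl21) had 30, 58 and 107 counts against 0, at least 7.95-, 14.4- and 33.3-fold higher. SPNCRNA.208 had 10, 23 and 84 counts against 0. Members of this group are short of counts in WT, so the upper ends of their intervals are wide or have no bound.

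Lower members were few in the libraries labelled with dis3 (1.55% and 2.53%). In that labelled Pnmt81-dhp1 their share, 8.12%, was near the 10.1% of all genes. SPNCRNA.130 (omt3) had 350, 106 and 107 counts in the same order, against 336 in WT, and was lower in Pnmt81-dhp1 (0.235-fold, 0.187 to 0.294) and in the library with both (0.298-fold, 0.237 to 0.371). Its neighbour mei2 had 330, 197 and 332 counts against 959. SPNCRNA.1255, the riser at 37°C, had 318, 95 and 326 counts against 279. SPNCRNA.1119 had 38, 136 and 33 counts against 70, lower in both libraries labelled with dis3 (0.432-fold, 0.283 to 0.65, and 0.44-fold, 0.282 to 0.675). In the library with both, SPNCRNA.29 (meu19, 38 counts against 83) was also lower. Of members with at least 50 counts, SPNCRNA.217 was the other one lower in Pnmt81-dis3 (0.489-fold), followed at smaller distances by SPNCRNA.995 (0.533-fold), SPNCRNA.1472 (0.572-fold), SPNCRNA.862 (0.576-fold) and SPNCRNA.01 (0.598-fold). In Pnmt81-dhp1 the lowest after these were SPNCRNA.1472 (0.268-fold), SPNCRNA.1120 (0.402-fold), SPNCRNA.738 (0.404-fold) and SPNCRNA.29 (0.405-fold).

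**Figure D5:**
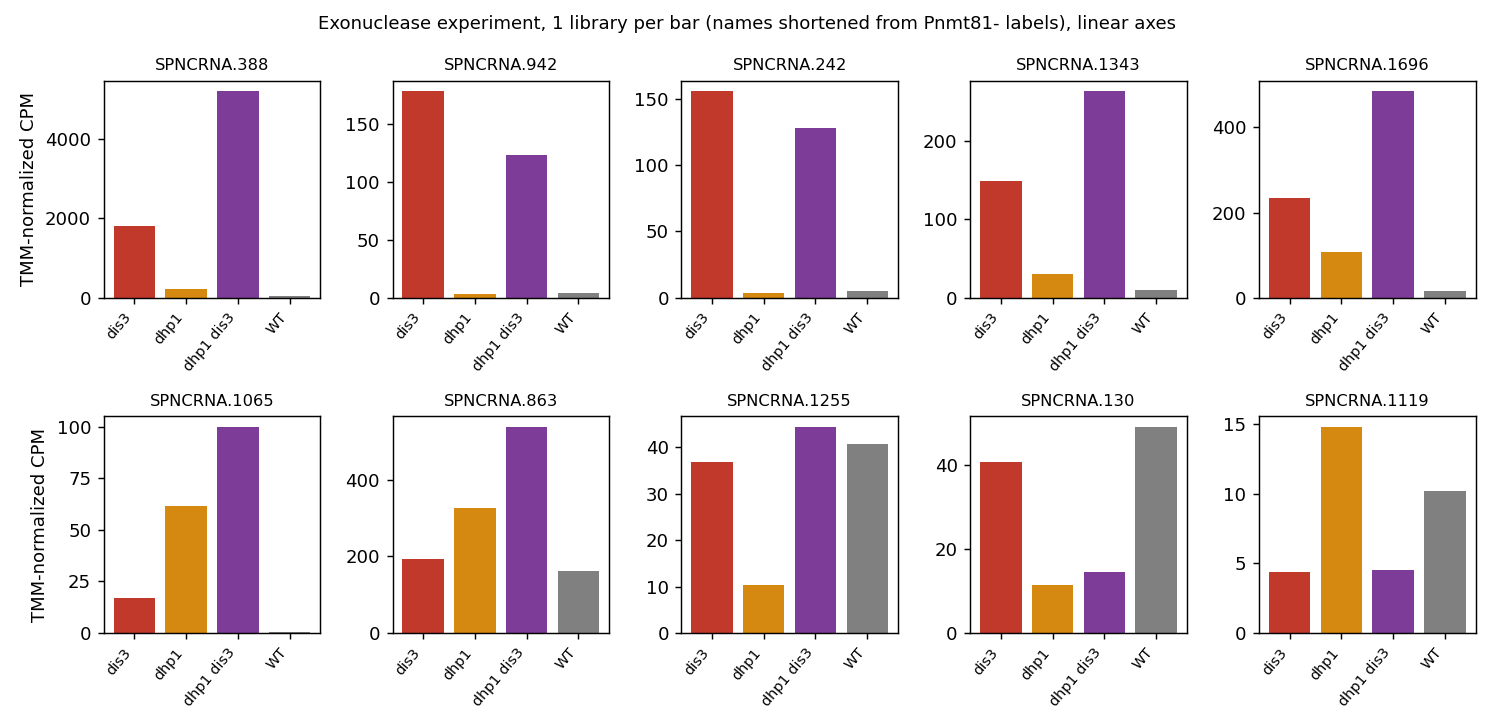
TMM-normalized CPM of 10 intergenic lncRNAs in the libraries labelled Pnmt81-dis3, Pnmt81-dhp1, Pnmt81-dhp1 Pnmt81-dis3 and WT in thiamine, 1 library per bar, on linear axes that start at 0 and differ between panels. SPNCRNA.388, SPNCRNA.942 and SPNCRNA.242 are high in both libraries labelled with dis3, SPNCRNA.1065 is high in those labelled with dhp1, and SPNCRNA.130 is highest in WT.

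Among members with at least 20 counts in 1 of the 2 libraries, more TTAAAC hexamers did not go with a larger median ratio in the Pnmt81-dis3 library. The medians were 2.34 over 17 members with at least 2 hexamers, 2.62 over 45 with 1 and 2.71 over 120 with 0, and 12, 34 and 93 of these were more than 2-fold higher. By position, 83 of 100 divergent members, 13 of 18 just downstream of a coding gene and 52 of 75 with neither neighbour were higher in that library. The share of all genes compared was 25.4%. Of the Pac1-bound members, 3 of 7 were higher in Pnmt81-dis3, 4 of 8 in Pnmt81-dhp1 and 6 of 8 in the library with both. The shares of all genes were 25.4%, 16.7% and 26.3%. In all these groups, members that reached 20 counts through the mutant library alone had to be higher. The groups were not compared with the minimum set in WT. SPNCRNA.1696 (nam3) had 2024, 980 and 3562 counts in the same order, against 102 in WT, and SPNCRNA.1343 had 1287, 278 and 1942 against 63. SPNCRNA.863 had 1666, 3011 and 3952 against 1108, ratios of 1.2-, 2.03- and 3.33-fold.

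The 2 members within 1000 base pairs downstream of a small nucleolar or nuclear RNA gene on the same strand, where readthrough from such a gene would fall, were SPNCRNA.901 and SPNCRNA.1436. SPNCRNA.901 had 2.34 and 2.04 CPM in Pac1-AA and 1.82 and 1.87 CPM in CTL (0.24, adjusted p = 0.348). SPNCRNA.1436, which RefSeq merges with the small nucleolar RNA snR95, had 12.2 and 12.5 CPM in Pac1-AA and 9.43 and 9.2 CPM in CTL (0.41, standard error 0.077, adjusted p = 0.00464). Its libraries did not overlap and its change stayed under the fold threshold. Among members with a name of their own, prl38 (SPNCRNA.1493) had 2.84 and 2.53 CPM in Pac1-AA and 1.51 and 1.52 CPM in CTL (0.82, adjusted p = 0.0084), meu3 (SPNCRNA.07) had 2.11 and 2.4 CPM and 1.3 and 1.31 CPM (0.79, adjusted p = 0.014), and prl21 had 1.13 and 0.759 CPM and 0.521 and 0.373 CPM (1.13, adjusted p = 0.0467). These 3 were higher in both Pac1-AA libraries than in both CTL libraries, and none was called. Smaller values were those of meu19 (SPNCRNA.29, 0.46), prl58 (SPNCRNA.58, 0.36), prl50 (SPNCRNA.50, 0.35), prl66 (SPNCRNA.66, 0.28) and prl24 (SPNCRNA.24, 0.15), of which none was called in Pac1-AA and prl24 was called higher at 37°C in WT (1.19).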

How the data were processed

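For pac1-ts and its WT the Zymo-Seq RiboFree kit was used on total RNA, and for the other experiments TruSeq Stranded after RiboZero depletion. The authors used Trimmomatic, then HISAT2 with ASM294v2 and strand-specific featureCounts on read pairs, and deposited 1 table of raw counts with gene coordinates. The deposited gene length, another column of that table, was used for FPKM only. Counts were tested with edgeR 4.0.16 (TMM, filterByExpr with a minimum count of 10, quasi-likelihood) in R 4.3.3, with strain as the term for anchor-away and strain, temperature and their interaction for pac1-ts, and with DESeq2 1.42.0 as an alternative.

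Nothing in the labels says that libraries of 1 strain came from separate cultures, so p-values measure the spread between these libraries, which may be technical. Same-numbered pac1-ts libraries are the same clone, and their deviations correlated (0.514), whereas those of the anchor-away libraries did not (0.0302). In simulated data with 200 changed genes, edgeR recovered 200 for Pac1-AA against CTL (6302 genes) and 197 for pac1-ts against WT at 30°C (6711 genes). The planted changes were larger than those of the members called in Pac1-AA, and the simulated libraries were independent, without the clone correlation. Recovery of changes of the members' size was not measured. At the totals given above, 3 counts equal 0.0563 to 0.439 CPM, and fragments are not independent molecules. Members and gene lists were chosen with earlier results of these data known. Named members are those with non-overlapping groups among the calls of a tested comparison, up to 6 that rose most and 6 that fell most, the 6 highest and 6 lowest exonuclease ratios with at least 50 counts, the 8 with the highest FPKM in CTL, members called in both Pac1 experiments, those with a RefSeq symbol, Pac1-bound members and those near a small nucleolar RNA gene. SPNCRNA.1315, SPNCRNA.115 and SPNCRNA.397 in other comparisons, and members beside a named gene, were picked after their values were seen. Of the members, 386 matched a RefSeq locus. The sequences come from RefSeq, and 1 sequence is not reported here.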

Additional observations from a re-analysis of the deposited data

Results flagged for a closer look

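The effect of pac1-ts on SPNCRNA.397 differed between the temperatures by a test of the difference itself. The interaction was 2.36 on the log2 scale (standard error 0.41, adjusted p = 0.0097 in edgeR), where the log2 fold change of pac1-ts over WT was -0.33 at 37°C and -2.69 at 30°C. WT has 1 library at each temperature, and the clones had 15.5 and 30.3 CPM at 37°C and 7.18 and 7.78 CPM at 30°C. The call was lost with DESeq2 (2.34), RLE factors (2.33) and library totals (2.23), in the same direction.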

How the results depend on the processing

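Members called higher in Pac1-AA numbered 1 with DESeq2, 5 with RLE factors, 9 with library totals and 9 with the replicate number as a block, and 1 to 8 with a library left out; members lower numbered 1 with the block and 0 to 1 with a library left out. In pac1-ts at 30°C, 20 were higher with the block and 8 to 16 with a library left out, and 4 of the lower members overlap no other gene. At 37°C, 5 were higher with DESeq2, 16 with the block, 4 to 12 with a library left out, and 4 overlap no other gene. The interaction gave 0 with DESeq2, RLE factors or library totals, 7 higher and 1 lower with the block, and 3 to 5 higher with a library left out. For 37°C, library totals gave 51 members higher in WT and 47 higher and 4 lower in pac1-ts, 12 and 11 of the higher members overlap no other gene, and DESeq2 gave 5 lower in WT. In the exonuclease libraries, at least 100 counts left 79, 27 and 81 higher and 1, 6 and 1 lower (dis3, dhp1, both), at least 5 counts gave 138 higher with dhp1 and 7, 24 and 10 lower, 81, 46 and 89 of the higher overlap no other gene, library totals gave 5 lower with dhp1, and at least 20 counts in WT left 54, 22 and 59 higher. The difference in share of counts between Pac1-AA and CTL ranged from -0.144 (without CTL #2, reversed) to 0.324 with a library left out. The cause of these changes was not tested beyond the fewer members each rule leaves. With the replicate block, all 49 results for single named members kept direction and call. Over these 49 results and all alternatives, 408 alternative values kept direction and call, 33 kept the direction and lost the call, and none reversed. The 49 were picked as the calls with the largest changes, which made a reversal unlikely in advance, so these counts say little about other members. Depth limits the exonuclease ratios, since 204 members had no count in WT.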
